A study of Mus musculus with 6 samples.

Results

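The collagen chain genes are the genes that encode the chains of the collagens, and they were taken as every gene whose symbol in the deposited feature lists reads Col, a number, the letter a and a number. This gave 44 genes of the 32285 genes counted. They were followed across the cell classes of the lumbar spinal cord in 6 libraries of single nuclei. The PHD1-/- group held 3 libraries (replicates 1 to 3) from SOD1G93A/PHD1-/- mice, and the PHD1+/+ group held 3 libraries (replicates 1 to 3) from SOD1G93A/PHD1+/+ mice. All mice were C57BL/6 and 110 days old, and the labels give them as littermate pairs. Mice of both groups carry SOD1G93A, a mutant human superoxide dismutase used to model amyotrophic lateral sclerosis, and the labels name no mice without it. PHD1 is an oxygen-sensing prolyl hydroxylase made by Egln2, and it is distinct from the prolyl hydroxylases that modify collagen. The promoter of the transgene, the deleted part of Egln2 and the number of mice per library are not given in the sources used here.

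Collagens are secreted or membrane proteins built from chains that wind round each other into a rope-like helix. Fibrillar collagens such as types I, III and V form the fibrils of meninges, nerve sheaths and vessel walls, and type IV collagen forms the sheet-like network of basement membranes under endothelium, around pericytes and Schwann cells and at the surface of the brain and spinal cord. Type VI collagen forms beaded microfibrils, fibril-associated collagens sit on the surface of fibrils, transmembrane collagens are anchored in the plasma membrane, and the multiplexins (types XV and XVIII) carry sugar chains and lie in basement membranes. The parenchyma of the central nervous system holds little fibrillar collagen, and in bone, skin and scar tissue fibroblast-type cells are the known source of it.

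After filtering, 19789 PHD1-/- nuclei and 22117 PHD1+/+ nuclei were left. Replicate 1 of both groups stood apart: its barcodes came from another barcode list, and the median nucleus held 1365 UMIs for PHD1-/- and 1363 for PHD1+/+, while replicates 2 and 3 had medians of 2668.5 and 2784.5 for PHD1-/- and of 2290.5 and 2902 for PHD1+/+ (a UMI marks an RNA molecule, counted once). CPM is a gene's UMIs over all UMIs of the same nuclei, scaled to a total of 1000000; a 3' kit counts molecules near their ends and the values were not divided by length, so levels are compared between cells for the same gene and not between genes. The replicate 1 libraries also held Xist, transcribed from the inactive X chromosome of females, at 1112 CPM in PHD1-/- and 487 CPM in PHD1+/+, together with 136 and 257 CPM of 4 Y-linked genes, so each may stand for more than 1 mouse. In the other 4 libraries Xist was at most 0.432 CPM. Any pair of libraries shared 0 to 86 cell barcodes. Egln2 was at 9.66, 9.04 and 10.1 CPM in the PHD1-/- libraries, against 29.6, 18.8 and 16.4 CPM in the PHD1+/+ libraries, so the libraries did not overlap and some Egln2 counts stayed in PHD1-/-.

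Nuclei were grouped into 16 classes from marker genes, with the collagen chain genes left out of the clustering, and 3382 nuclei stayed in no class. Of these, 1680 formed a cluster that led in astrocyte markers, Gfap among its leading genes, but scored for cholinergic neuron markers as well. It held 1094 nuclei of PHD1+/+ replicate 1 and 220 of PHD1-/- replicate 1, and the astrocyte class (1445 nuclei) leaves it out. Nuclei in no class made up 21.4% of PHD1+/+ replicate 1, 13.4% of PHD1-/- replicate 1 and 1.55% to 2.69% of each other library. The classes that carry most of what follows are fibroblast-like nuclei (872, with 57 to 204 per library), Schwann-like nuclei (1223, 49 to 368), mural-like nuclei (pericytes and smooth muscle of vessels; 223, 24 to 67) and endothelial-like nuclei (426, 11 to 194); class names below are used without "-like". Of the markers listed for each class, 17 of 18 fibroblast markers, 12 of 12 Schwann markers, 14 of 14 mural markers and 14 of 14 endothelial markers were at least 2-fold higher in their class than in the other nuclei. The exception was Slc4a10. Clusters were named from these same lists, so the counts describe the classes and are no independent check of their names. Fibroblasts lie in the meninges and around vessels and nerve roots, and Schwann cells in the roots, so values over all nuclei were also computed without these 4 classes.

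Summed over the 44 genes, collagen transcripts were most concentrated in fibroblasts and Schwann cells, while neurons held most of them in number. The summed level was 4727 CPM in fibroblasts (range 3269 to 5894 over the 6 libraries), 3519 CPM in Schwann cells (2173 to 4411) and 2100.3 CPM in mural cells (1139.99 to 2608). Ependymal cells (999 CPM), newly formed oligodendrocytes (909 CPM), astrocytes (876 CPM), endothelial cells (870.1 CPM), oligodendrocyte precursor cells (OPC, 743 CPM) and neurons (699 CPM) followed, with microglia (347 CPM) and oligodendrocytes (231 CPM) lower. Of 103476 collagen UMIs, 66.4% lay in neurons, close to the 66.2% of all UMIs that neurons hold. Fibroblasts held 6.17% of the collagen UMIs with 0.881% of all UMIs, and Schwann cells 4.42% with 0.891%. By genotype the fibroblast sums were 3527, 5894 and 5132 CPM in the PHD1-/- libraries, against 3269, 5183 and 5354 CPM in the PHD1+/+ libraries. The groups overlapped, and replicate 1 was the lowest library in both; the Schwann sums were also lowest in replicate 1, at 2434 CPM in PHD1-/- and 2173 CPM in PHD1+/+.

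Each chain was assigned to the class with its highest mean level over the 6 libraries. Fibroblasts led for 13 chains, Schwann cells for 10, mural cells for 5 and newly formed oligodendrocytes for 3. OPC, ependymal cells and neurons of unresolved transmitter type led for 2 chains each, and endothelial cells, astrocytes, oligodendrocytes, microglia, border macrophages, excitatory neurons and cholinergic neurons for 1 chain each; inhibitory neurons and lymphocytes led for 0. In some of these the lead was slight or rested on few UMIs: the single chains led by border macrophages (Col2a1, 1 UMI), microglia (Col17a1, 2 UMIs) and cholinergic neurons (Col6a4, 6 UMIs) say nothing of those classes, and the same holds for Col10a1 in fibroblasts (2 UMIs). Oligodendrocytes led for Col16a1 in their mean (63.6 CPM, against 58.2 CPM in Schwann cells) but were the highest class in 0 of 6 libraries. These assignments describe the nuclei from which the classes were made and carry no test.

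**Figure D1:**
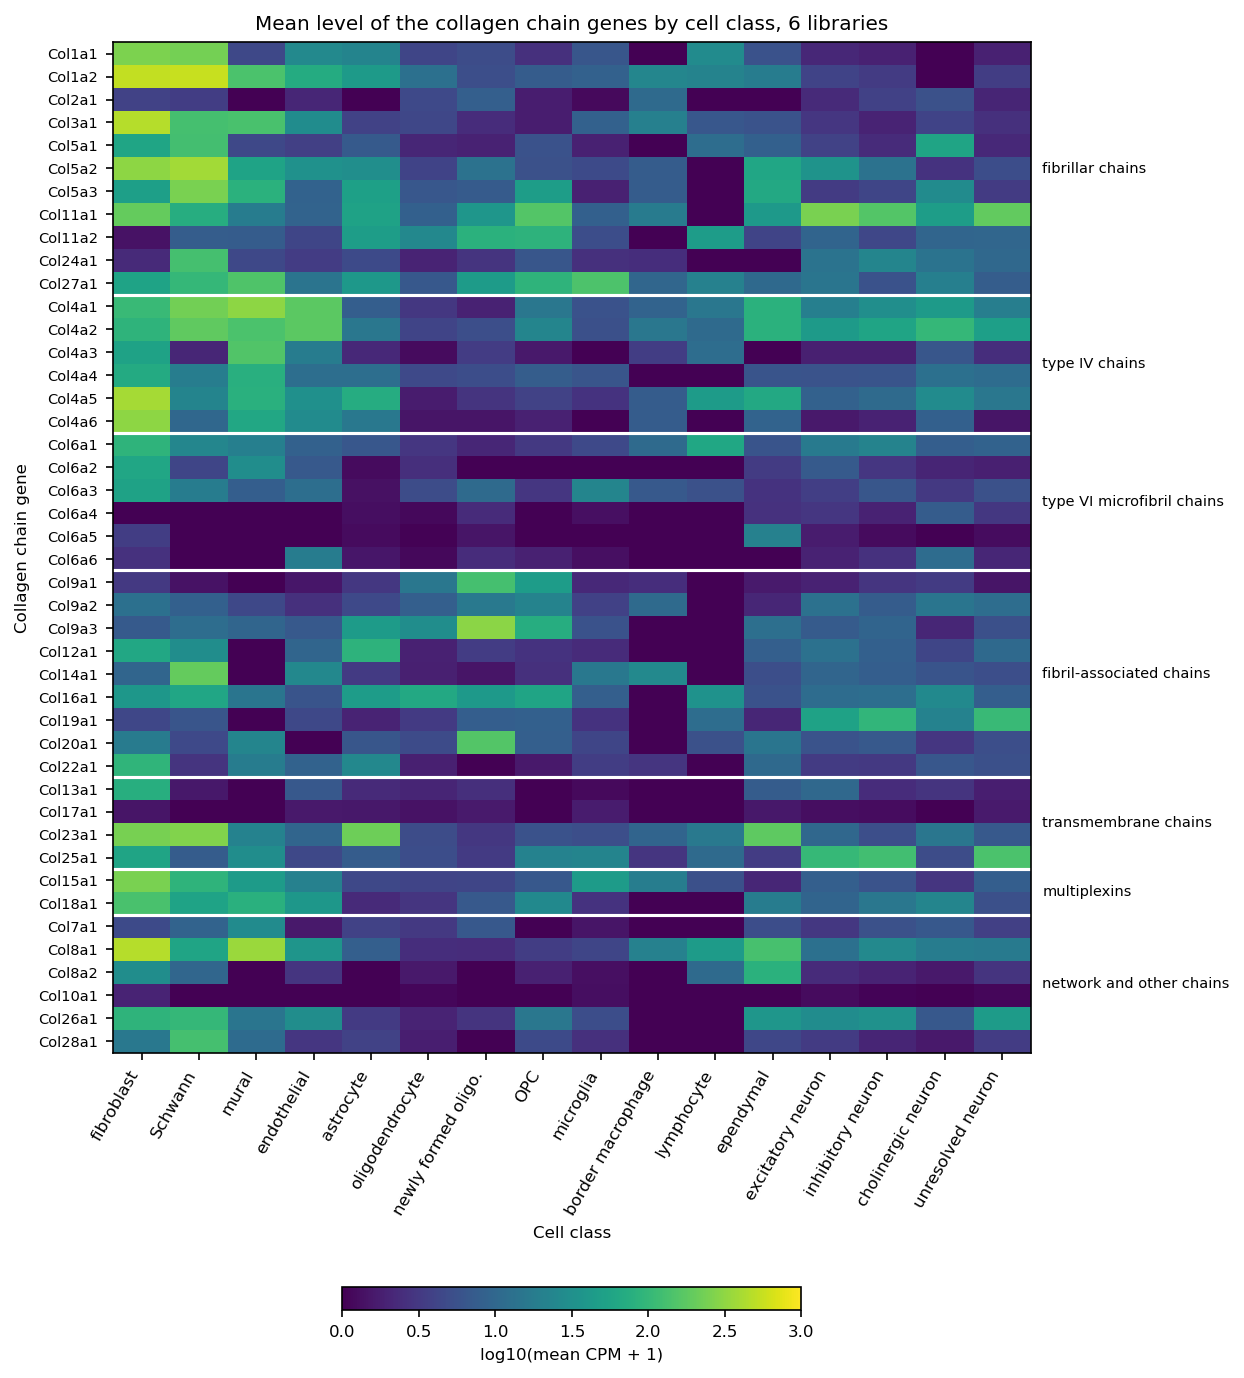
Heat map of the mean level of each of the 44 collagen chain genes (rows, grouped by the kind of collagen) in each of 16 cell classes (columns), as log10 of the mean CPM over the 6 libraries plus 1. The brightest cells lie in the fibroblast and Schwann columns, and separate bright rows mark Col9a1, Col9a3 and Col20a1 in newly formed oligodendrocytes and Col11a1, Col19a1 and Col25a1 in neurons.

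Among the fibrillar chains, those of type I were high in fibroblasts and Schwann cells, and that of type III was highest in fibroblasts. Both types were close to absent from neurons. In fibroblasts Col1a2, a chain of type I collagen, had 349, 656 and 655 CPM in the PHD1-/- libraries (replicates 1 to 3), against 271, 587 and 638 CPM in the PHD1+/+ libraries. In Schwann cells it had 336, 598 and 889.6 CPM in the PHD1-/- libraries (replicates 1 to 3), against 267, 533 and 718 CPM in the PHD1+/+ libraries. Replicate 1 was the lowest library of both groups in both classes, and the classes could not be ranked, since Schwann cells were the higher in their mean (557 against 526 CPM) but led all classes in only 2 of 6 libraries. In neurons Col1a2 averaged 2.48 CPM. At least 1 Col1a2 UMI was seen in 43.9% of fibroblast nuclei (median 1174 UMIs per nucleus) and 30.01% of Schwann nuclei (median 835), against 1.00% of excitatory neurons (median 4512). Excitatory neurons were assumed to lack Col1a2 and serve as a rough guide to free RNA, which was not estimated. With every nucleus thinned to 500 UMIs, which all kept nuclei held, the shares were 20.9%, 17.5% and 0.163%.

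Col1a1, the other chain of type I collagen, averaged 258 CPM (range 201 to 297) in fibroblasts and 236 CPM (range 128 to 341) in Schwann cells, and these ranges overlapped. Col3a1, the chain of type III collagen, was led by fibroblasts in all 6 libraries, with 380.2, 677 and 496 CPM in the PHD1-/- libraries (replicates 1 to 3), against 240.1, 447 and 515 CPM in the PHD1+/+ libraries. It was lower in mural cells (135 CPM, range 39.1 to 275) and Schwann cells (129 CPM, range 58.6 to 243). The type V chains, which set fibril width, were highest in Schwann cells. There Col5a3 had 204, 284 and 246 CPM in the PHD1-/- libraries (replicates 1 to 3), against 239.96, 334 and 190.5 CPM in the PHD1+/+ libraries, above every library of every other class; the next class was mural cells, at 81.6 CPM (range 39.1 to 123). Col5a1 and Col5a2 averaged 126 CPM (range 35.6 to 223) and 382 CPM (range 270.4 to 615) in Schwann cells, and 56.8 and 306 CPM in fibroblasts, with overlapping ranges. Col24a1, a fibrillar chain known from bone, was at 129 CPM (range 67.6 to 234) in Schwann cells and 1.29 CPM in fibroblasts. Col27a1, known from cartilage, averaged 144 CPM (range 76.1 to 233) in microglia and 148 CPM (range 41.1 to 326) in mural cells, the second on 25 UMIs. Col11a2, a type XI chain, was highest in OPC (86.7 CPM) and newly formed oligodendrocytes (80.8 CPM). Col2a1, the chain of cartilage collagen, stayed at or below 10.02 CPM in every class.

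The RefSeq sequences (build GRCm38.p6) just before the annotated starts of Col1a2, Col3a1 and Col11a1 are shown because these fibrillar chains divide the cell classes: Col1a2 and Col3a1 had 5.89% and 7.92% of their UMIs in neurons, and Col11a1 88.8%. Each run is the 250 bases before the start, on the plus strand, and capitals mark CCAAT or TATAAA on either strand (a CCAAT on the minus strand reads ATTGG).
Col1a2, chr6:4505368-4505617: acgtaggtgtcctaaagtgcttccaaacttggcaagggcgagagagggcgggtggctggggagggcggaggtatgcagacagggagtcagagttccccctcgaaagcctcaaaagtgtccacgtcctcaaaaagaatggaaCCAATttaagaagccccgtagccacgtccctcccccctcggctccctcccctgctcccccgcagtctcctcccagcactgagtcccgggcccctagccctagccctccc
Col3a1, chr1:45311288-45311537: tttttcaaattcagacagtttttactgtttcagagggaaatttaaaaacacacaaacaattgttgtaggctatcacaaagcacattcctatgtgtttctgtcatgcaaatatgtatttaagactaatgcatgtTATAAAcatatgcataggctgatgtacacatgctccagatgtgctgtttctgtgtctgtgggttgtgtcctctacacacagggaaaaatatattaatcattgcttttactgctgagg
Col11a1, chr3:114030290-114030539: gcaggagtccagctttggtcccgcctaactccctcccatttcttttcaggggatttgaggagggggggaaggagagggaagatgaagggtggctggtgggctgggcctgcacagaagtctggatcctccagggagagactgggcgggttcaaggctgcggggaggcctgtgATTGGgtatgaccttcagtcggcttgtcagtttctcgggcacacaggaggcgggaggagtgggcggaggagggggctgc
Promoter windows of 250 bases before to 50 bases after the start were found for 35 of the 44 genes (38 windows). CCAAT, searched on both strands, was in 34.2% of the member windows and 37.4% of all 32851 windows. TATAAA was in 13.2% and 13.6%, and GGGCGG, the core bound by Sp1-type factors, in 60.5% and 35.7%. ACGTG, the core of hypoxia-response elements, was in 13.2% of the member windows and 19.6% of all windows. GCGTG, the other form of that core, was in 26.3% and 32.4%. The motifs were counted without regard to overlap with each other, and a match is only a description of the letters.

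Among the type IV chains, mural cells led for 3, fibroblasts for 2 and Schwann cells for 1. Col4a1 and Col4a2, the chains of the common basement membrane network, have annotated starts 21 bases apart on chromosome 8, Col4a2 on the plus strand and Col4a1 on the minus strand. The bases from the Col4a2 start to the Col4a1 start, on the plus strand of GRCm38.p6 (RefSeq), are shown. Both genes run across this stretch, so their annotated 5' ends overlap.
Col4a1 and Col4a2, chr8:11312805-11312826: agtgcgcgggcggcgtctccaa
In mural cells Col4a1 had 236, 448 and 472 CPM in the PHD1-/- libraries (replicates 1 to 3), against 63.3, 494 and 156 CPM in the PHD1+/+ libraries. It rests on 63 UMIs there, and the libraries of both groups were widely spread. It averaged 228 CPM (range 60.8 to 331) in Schwann cells, 176 CPM (range 62.5 to 377) in endothelial cells, 107 CPM in fibroblasts and 80.8 CPM in ependymal cells. Col4a2 followed the same classes, with 184 CPM (range 67.6 to 243) in Schwann cells, 173 CPM (range 68.7 to 303) in endothelial cells and 139 CPM in mural cells, and it was also at 98.3 CPM (range 67.6 to 162) in cholinergic neurons, the class of the motor neurons. In oligodendrocytes Col4a1 averaged 2.05 CPM and Col4a2 3.09 CPM, and in microglia 4.70 and 4.35 CPM.

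Col4a5 and Col4a6, which start 1343 bases apart on opposite strands of the X chromosome, were led by fibroblasts in all 6 libraries. There Col4a5 had 243, 595 and 355 CPM in the PHD1-/- libraries (replicates 1 to 3), against 232, 353 and 575 CPM in the PHD1+/+ libraries, and every library exceeded every library of the next class, mural cells (78.6 CPM, range 0 to 123). Col4a6 had 317, 349 and 268 CPM in the PHD1-/- libraries (replicates 1 to 3), against 201, 336 and 401 CPM in the PHD1+/+ libraries, again above the mural cells (62.5 CPM, range 0 to 144). Col4a5 was at 71.02 CPM (range 52.5 to 92.8) in astrocytes and 64.01 CPM in ependymal cells, and Col4a6 at 15.03 CPM (range 9.02 to 23.3) in astrocytes and 8.06 CPM in ependymal cells. Col4a3, which with Col4a4 and Col4a5 forms the network known from the kidney glomerulus, was highest in mural cells (151 CPM, range 21.1 to 245, 28 UMIs), followed by fibroblasts (52.9 CPM, range 10.6 to 90.04). Col4a4 was at 76.3 CPM in mural cells and 67.9 CPM in fibroblasts, with overlapping ranges.

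**Figure D2:**
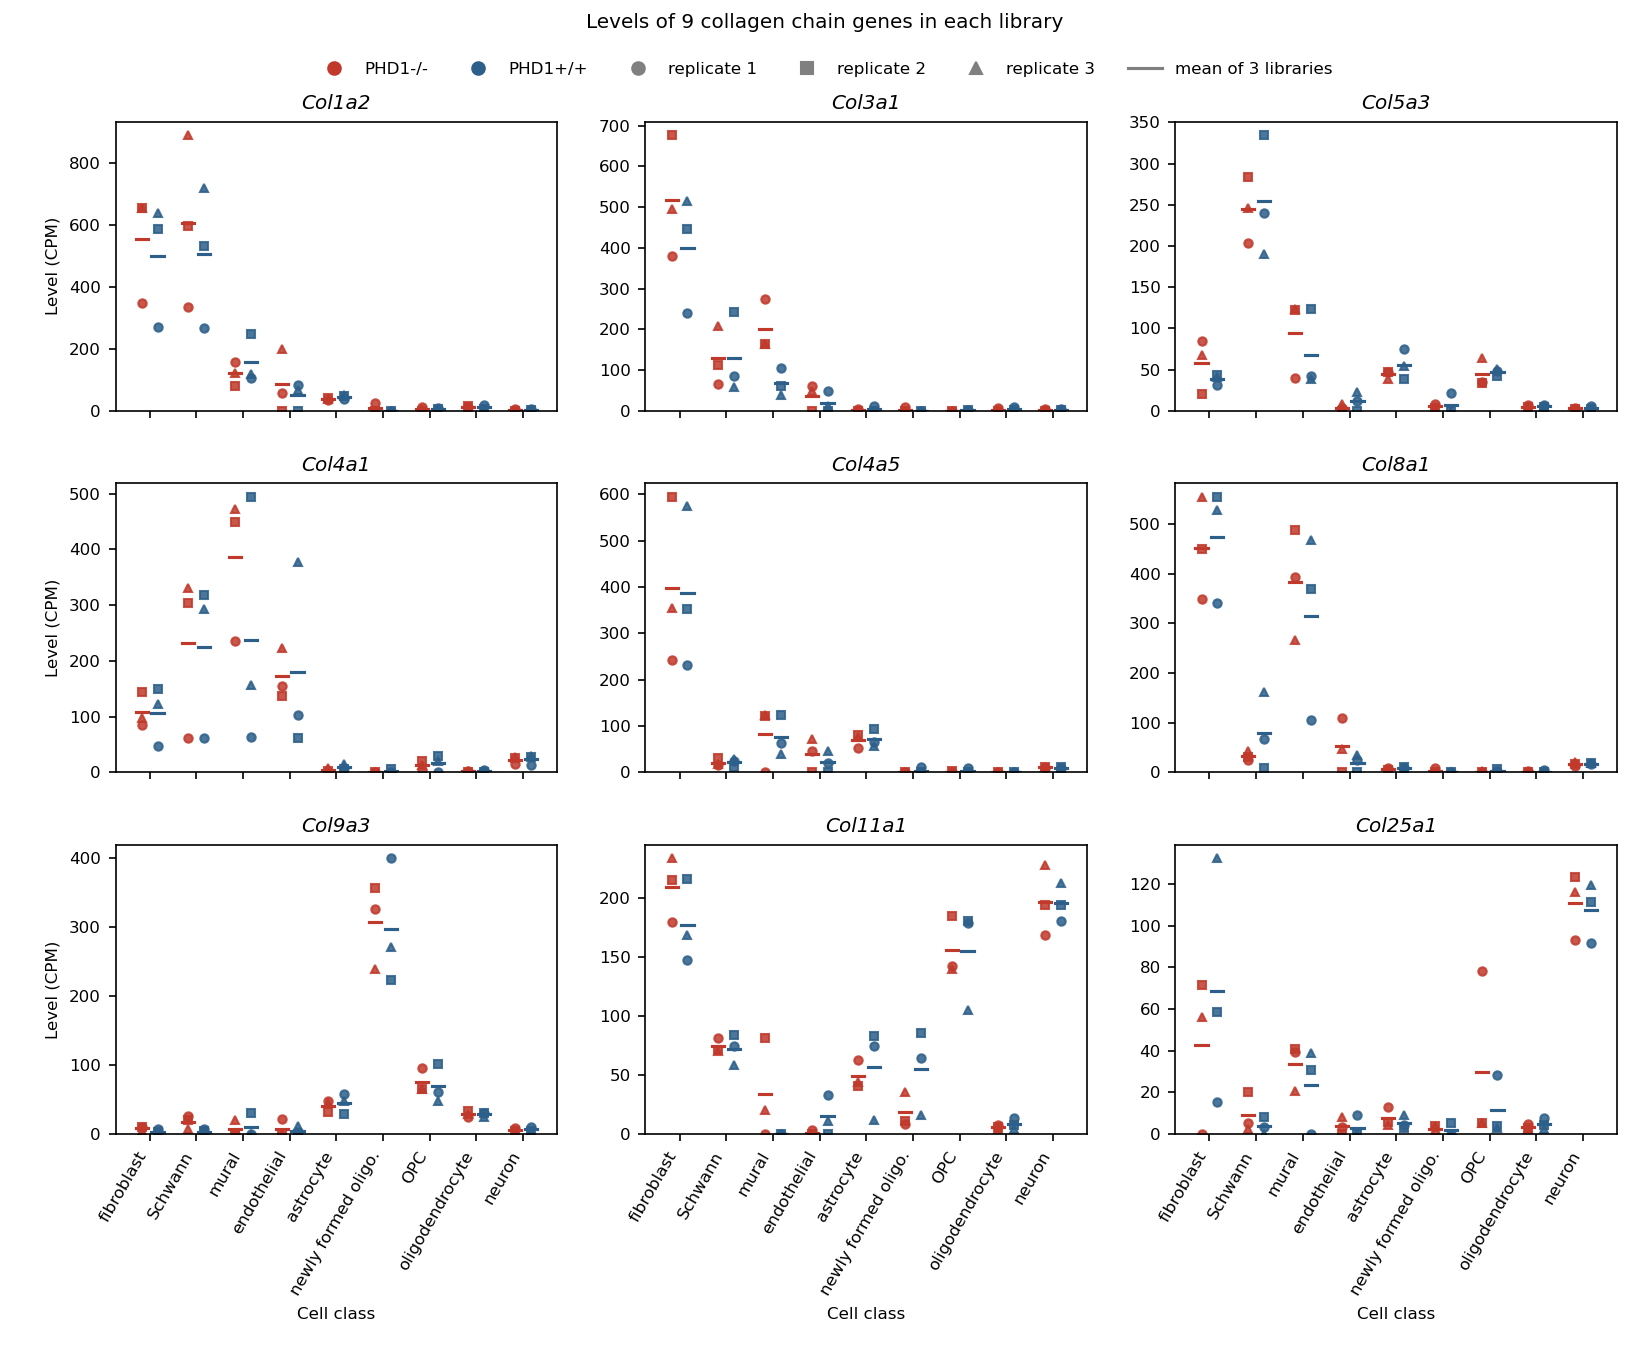
Level in CPM (vertical axes, each from 0) of 9 collagen chain genes in each of 9 cell classes, with PHD1-/- libraries (red) left of PHD1+/+ libraries (blue); a circle is replicate 1, a square replicate 2, a triangle replicate 3, and a bar the mean of 3 libraries. For Col4a5 all 6 fibroblast libraries lie above every other point, and Col9a3 peaks in newly formed oligodendrocytes.

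Fibroblasts also had the highest mean levels of Col8a1, of the main type VI chains and of both multiplexins. Col8a1, a chain of the hexagonal network collagen of vessel walls and the corneal Descemet membrane, had 349, 451 and 555 CPM in the PHD1-/- libraries (replicates 1 to 3), against 341, 555 and 529 CPM in the PHD1+/+ libraries. It was also high in mural cells (349 CPM, range 106 to 489), and these ranges overlapped. Its partner Col8a2 was highest in ependymal cells, with 143, 68.9 and 103 CPM in the PHD1-/- libraries (replicates 1 to 3), against 45.5, 47.6 and 81.7 CPM in the PHD1+/+ libraries, while Col8a1 there was at 133 CPM. Of the type VI chains, Col6a1, Col6a2 and Col6a3, which assemble together, averaged 87.6 CPM (range 54.2 to 133), 59.3 CPM (range 30.98 to 77.9) and 52.2 CPM (range 30.98 to 72.97) in fibroblasts, and fibroblasts led in 5 of 6 libraries for each. The later-described type VI chains Col6a4, Col6a5 and Col6a6 held 185, 78 and 166 UMIs over all nuclei; Col6a5 was highest in ependymal cells (19.7 CPM) and Col6a6 in endothelial cells (17.04 CPM on 12 UMIs). Col15a1 averaged 248 CPM (range 158 to 362) in fibroblasts, above every other class in all 6 libraries, with Schwann cells next at 87.6 CPM. Col18a1, whose cleaved end is endostatin, averaged 136 CPM (range 31.7 to 308) in fibroblasts and 79.98 CPM in mural cells, with overlapping ranges. Col13a1, a transmembrane chain of the neuromuscular junction, was at 75.02 CPM (range 61.5 to 84.5) in fibroblasts and at most 9.29 CPM in any other class.

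Several fibril-associated chains were highest in glia. Newly formed oligodendrocytes, which express Bcas1 and Enpp6, stand between precursor and myelinating cell. In them Col9a3, a chain of the type IX collagen of cartilage, had 327, 358 and 239.8 CPM in the PHD1-/- libraries (replicates 1 to 3), against 399.9, 223 and 271 CPM in the PHD1+/+ libraries. Every library there exceeded every library of OPC (72.8 CPM, range 47.9 to 101), and mature oligodendrocytes were at 28.9 CPM. In the same class Col9a1 had 172, 128 and 179.8 CPM in the PHD1-/- libraries (replicates 1 to 3), against 97.3, 96.6 and 112 CPM in the PHD1+/+ libraries. It was at 44.1 CPM in OPC and 14.3 CPM in oligodendrocytes. Col20a1 was at 157 CPM (range 124 to 208) in newly formed oligodendrocytes and at most 22.02 CPM in any other class, OPC included (7.09 CPM). All 3 chains thus stood higher in the intermediate stage than in the stages on either side of it. Col9a2, the third type IX chain, averaged 15.1 CPM in that stage and 21.2 CPM in OPC (57 UMIs), with overlapping ranges. Col16a1 differed little along the lineage, with 55.6 CPM in OPC, 41.5 CPM in newly formed oligodendrocytes and 63.6 CPM in oligodendrocytes.

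In astrocytes, Col12a1 averaged 85.2 CPM (range 39.4 to 142), against 61.1 CPM in fibroblasts, with overlapping ranges. Col23a1, a transmembrane chain, was at 216 CPM (range 119 to 332) in astrocytes, 180.5 CPM (range 117 to 344) in ependymal cells, 266 CPM (range 166 to 330.4) in Schwann cells and 245 CPM (range 137 to 406) in fibroblasts. These ranges overlapped, and every other class was at or below 20.1 CPM. Schwann cells stood alone for the fibril-associated chain Col14a1, at 194 CPM (range 108 to 307) against at most 24.8 CPM elsewhere, and for Col28a1, a chain known from the sheath of peripheral nerve, at 129 CPM (range 70.96 to 178) against at most 14.9 CPM. Col26a1 was at 99.5 CPM in Schwann cells and 88.9 CPM in fibroblasts. Col22a1, known from tissue junctions, averaged 90.4 CPM (range 42.2 to 113) in fibroblasts. Col7a1, the chain of skin anchoring fibrils, was at 26.7 CPM in mural cells on 5 UMIs.

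Within the fibroblasts and the Schwann cells, clusters (numbered b3, b10 and so on) made without the collagen genes carried different sets of chains. The values in this and the next account are pooled over the libraries, with exact 95% Poisson intervals that cover counting error only and take each UMI as independent. Fibroblast cluster b3 (473 nuclei, led by Slc7a11, Bmp6 and Slc6a13) had 645 CPM (585 to 710.4) of Col4a5 and 564 CPM (507 to 625) of Col4a6. Cluster b10 (240 nuclei, led by Bnc2 and Dcn) had 62.8 CPM (40.3 to 93.5) of Col4a5 and 1 UMI of Col4a6. In cluster b14 (159 nuclei, led by Dcn and Apod) they were at 235 and 139.99 CPM. Among the fibroblast clusters, b3 was also the highest for Col23a1 (527 CPM, against 20.9 in b10 and 83.2 in b14), Col22a1 (184 CPM, against 2.62 and 7.57) and Col13a1 (139 CPM, against 10.47 and 7.57). Cluster b14 had 893 CPM (783 to 1014) of Col15a1, against 122 CPM in b3 and 15.7 CPM in b10, and 518 CPM (435 to 613) of Col11a1, against 131 and 109.97 CPM. Col12a1 was highest in b10 (102 CPM). Col1a2, Col3a1 and Col8a1 were high in all 3: their lowest values among these clusters were 453, 379.6 and 469 CPM.

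Schwann clusters b4 and b6 (472 and 400 nuclei) had the myelin genes Pmp22 and Prx among their leading genes, and cluster b7 (351 nuclei) had Cdh19, Stard13, Itgb8 and Scn7a. Cluster b7 carried the chains of types I and III: Col1a1 was at 673 CPM (589.6 to 764), against 92.01 CPM in b4 and 61.9 CPM in b6. Col1a2 was at 1049 CPM (945 to 1162) there, against 484 and 218 CPM. Col3a1 was at 507 CPM (436 to 588), against 27.4 and 5.90 CPM, and Col5a2 at 906 CPM (809.5 to 1012), against 181 and 127 CPM. Col28a1 (365 CPM), Col27a1 (351 CPM) and Col16a1 (202 CPM) were also highest in b7 among the 3. Clusters b4 and b6 had Col14a1 at 305 and 183 CPM, against 57.01 CPM in b7, and Col24a1 at 189 and 100.3 CPM, against 5.70 CPM. Col23a1 was at 378 and 271 CPM, against 37.1 CPM. Col5a3 was even over the 3 clusters, at 259.9, 257 and 245 CPM. Cluster b4 came mostly from replicates 2 and 3 and b6 mostly from replicate 1 of both groups, so the contrast of Col4a1 between them (371 and 61.9 CPM) cannot be told apart from the libraries. Cluster b7 had nuclei of all 6 libraries, and within them Col1a2 ranged from 411 to 1977 CPM.

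**Figure D3:**
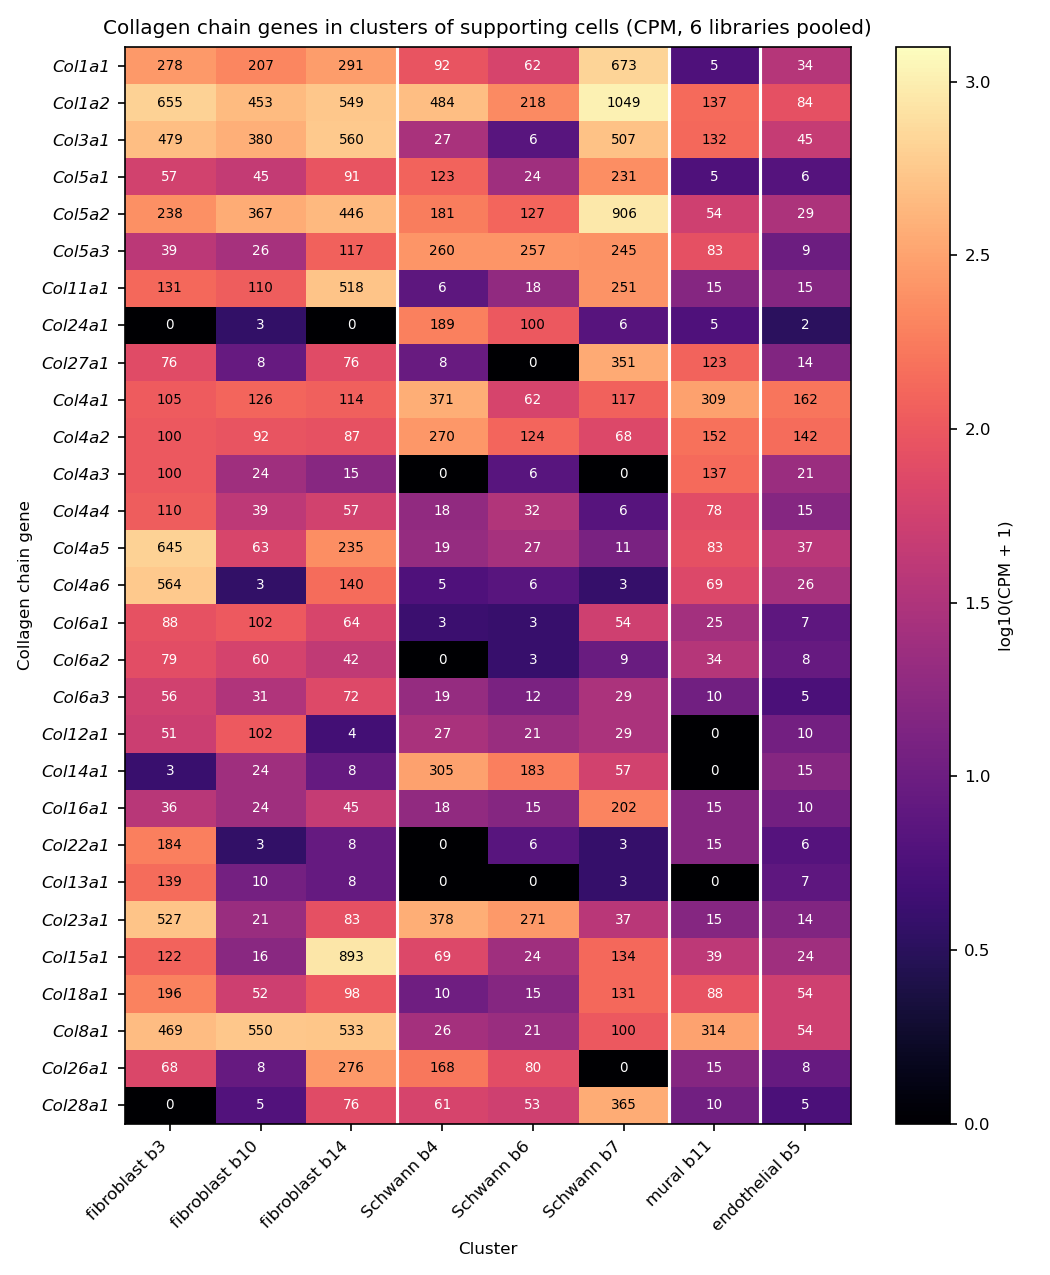
Level in CPM, pooled over the 6 libraries and printed in each cell, of 29 collagen chain genes (rows) in clusters of fibroblasts, Schwann cells, mural cells and endothelial cells (columns); colour is log10 of CPM plus 1. Col4a5 and Col4a6 are brightest in fibroblast b3, Col15a1 in fibroblast b14, and Col1a1, Col1a2 and Col5a2 in Schwann b7.

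In neurons 3 chains, Col11a1, Col25a1 and Col19a1, made up 56.1% of the collagen UMIs. In excitatory neurons Col11a1, a type XI chain known from cartilage and the inner ear, had 233, 221 and 259 CPM in the PHD1-/- libraries (replicates 1 to 3), against 266, 232 and 261 CPM in the PHD1+/+ libraries, and 88.8% of its UMIs lay in neurons. The 6 values ranged from 221 to 266 CPM, and the groups overlapped. It was also at 193 CPM in fibroblasts and 155 CPM in OPC, with 7.27 CPM in oligodendrocytes. Over all neurons Col25a1, a transmembrane chain found in amyloid plaques and known in mice to be needed for motor innervation of muscle, had 93.1, 123 and 116 CPM in the PHD1-/- libraries (replicates 1 to 3), against 91.9, 111 and 119.5 CPM in the PHD1+/+ libraries, with 91.5% of its UMIs there. Col19a1, a fibril-associated chain made by subsets of brain interneurons in mice, had 69.7, 90.04 and 84.7 CPM in the PHD1-/- libraries (replicates 1 to 3), against 58.2, 82.7 and 81.1 CPM in the PHD1+/+ libraries, and 92.7% of its UMIs lay in neurons. Those 3 genes span 190.2, 468 and 326 kb. At least 1 Col11a1 UMI was seen in 44.1% of excitatory neurons, against 1.11% of oligodendrocytes (median 1422 UMIs), and after thinning to 500 UMIs in 11.8% and 0.402%.

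Neuron clusters (numbered n1, n2 and so on) differed widely in these chains. Col11a1 was at 1387 CPM (1342 to 1433) in excitatory cluster n2 (829 nuclei, led by Sgcz and Gabrg3), where the 6 libraries ranged from 1032 to 1582 CPM. It was at 617 CPM in n27 and 596 CPM in n24, and at 12.3 CPM in excitatory cluster n23. Col25a1 marked other clusters: 557 CPM (508 to 609) in n30, 551 CPM (509.9 to 594) in n21 and 371 CPM (348 to 396) in n9, all excitatory, and 499.6 CPM (474 to 526) in inhibitory n12, against 5.09 CPM in n24. Col19a1 was at 151, 148 and 146 CPM in n1, n5 and n10, of which n5 is excitatory, and it held 0 UMIs in n27. Chains that were high in fibroblasts or Schwann cells also appeared in single neuron clusters: Col5a2 was at 437 CPM (399.99 to 477) in excitatory n25, Col8a1 at 244 CPM (205 to 288) in inhibitory n29, a cluster with the cerebrospinal fluid-contacting neuron gene Pkd2l1 among its leading genes, and Col24a1 at 100.3 CPM (88.1 to 114) in inhibitory n15. Cholinergic neurons (cluster n28, 156 nuclei) had Col5a1 at 56.7 CPM (47.3 to 67.5) and excitatory n30 had it at 65.9 CPM (49.9 to 85.3), while every other neuron cluster was at or below 4.54 CPM. Col25a1 in n28 was at 5.36 CPM. Col5a1 in cholinergic neurons was 20.3, 51.1 and 76.9 CPM in the PHD1-/- libraries (replicates 1 to 3), against 75.4, 43.4 and 68.5 CPM in the PHD1+/+ libraries. All 6 lay above the excitatory class as a whole, whose range was 1.67 to 4.40 CPM, and the genotypes overlapped.

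**Figure D4:**
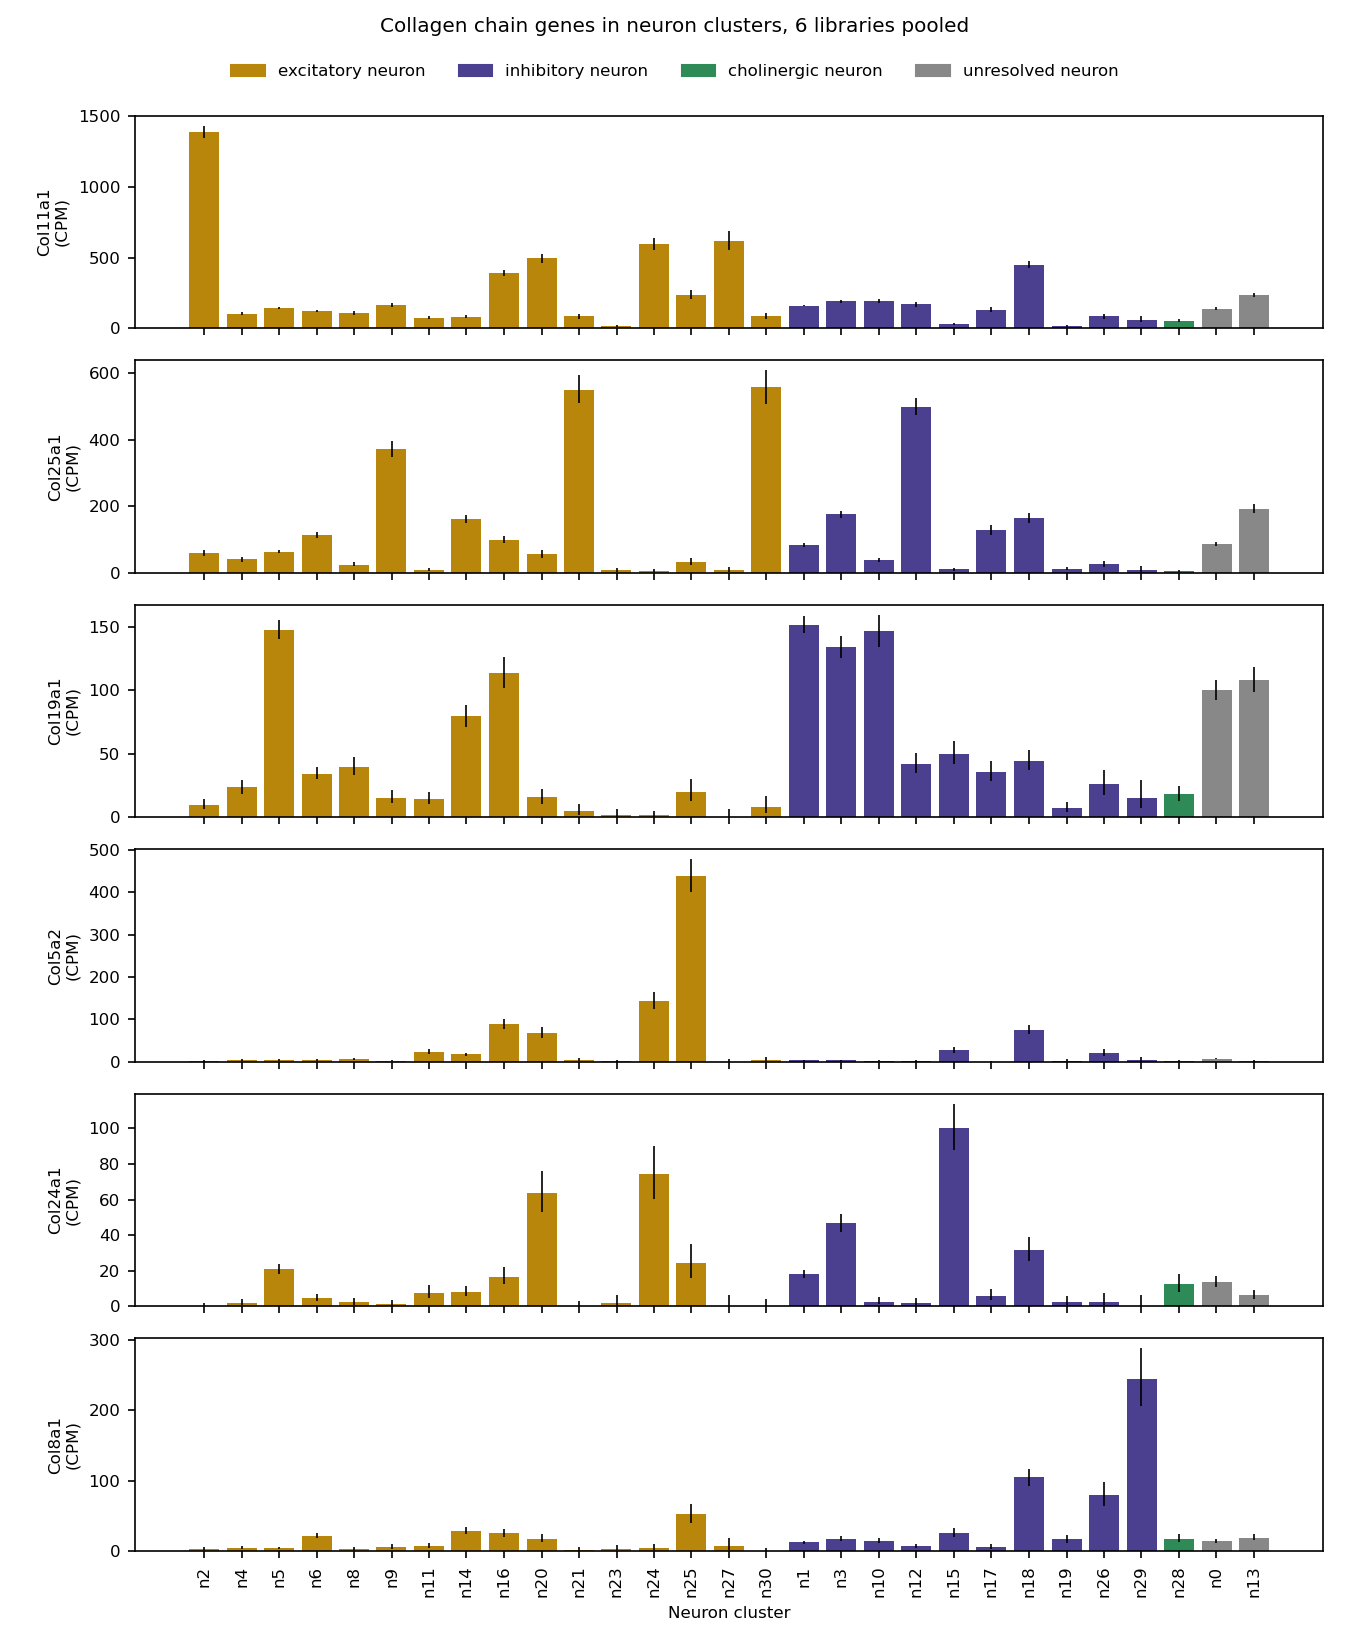
Level in CPM (bars from 0, 6 libraries pooled, with exact 95% Poisson intervals) of 6 collagen chain genes in each of 29 neuron clusters, coloured by transmitter class. Col11a1 peaks in n2, Col25a1 in n9, n12, n21 and n30, Col5a2 in n25 and Col8a1 in n29, and the single cholinergic cluster, n28, reaches at most 52.7 CPM (Col11a1).

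Chains that assemble in the same molecule were set side by side over the 14 classes with at least 100 collagen UMIs, with Spearman's rank correlation of the mean levels as a description; the points share libraries and differ in depth. The correlation was 0.96 for Col4a1 and Col4a2, 0.90 for Col4a5 and Col4a6, 0.88 for Col1a1 and Col1a2, 0.76 for Col6a1 and Col6a2 and 0.69 for Col4a3 and Col4a4. Over all 820 pairs of the 41 chains with at least 100 UMIs the median was 0.19 and the quartiles -0.11 and 0.46. Col5a1 with Col5a2 (0.56) and Col8a1 with Col8a2 (0.59) were lower than the type I and IV pairs. The type IX chains gave 0.58 for Col9a1 with Col9a2, 0.39 for Col9a1 with Col9a3 and 0.14 for Col9a2 with Col9a3, the last below the median of all pairs. Col11a1 with Col11a2 was also below it, at 0.0022: Col11a1 was at 196 CPM in neurons and 37.03 CPM in newly formed oligodendrocytes, and Col11a2 at 6.56 CPM in neurons and 80.8 CPM in newly formed oligodendrocytes.

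The genes that make, process and bind collagen did not follow a single class. Of 19 collagen-modifying and folding genes, mural cells led for 4, microglia for 3 and fibroblasts for 2. P4ha1, a catalytic subunit of collagen prolyl 4-hydroxylase, was at 212 CPM (155 to 274) in Schwann cells, 197 CPM (165 to 219.6) in astrocytes and 156 CPM (108 to 179.5) in fibroblasts. Serpinh1, the collagen chaperone, was at 142 CPM (81.5 to 197) in mural cells. Of 13 genes for propeptide processing and cross-linking, fibroblasts led for 5: Adamts2, the procollagen N-proteinase, was at 155 CPM (61.5 to 234) and Pcolce, which enhances removal of the C-propeptide, at 152 CPM (113 to 243). Tll1, a C-proteinase of the same family as Bmp1, was at 324 CPM (193 to 454) in Schwann cells. Of 12 collagen receptors, mural cells led for 3, with the integrin chain Itga1 at 1143 CPM (697 to 1482), while Ddr2 was at 215 CPM (163 to 274) in fibroblasts and Adgrg6, an adhesion receptor needed for Schwann cell myelination, at 235 CPM (135 to 365) in Schwann cells. Of 13 breakdown genes, fibroblasts and Schwann cells led for 3 each, with the inhibitor Timp3 at 386 CPM (106 to 529) in fibroblasts, and Mmp16 was at 342 CPM (279.7 to 399.5) in neurons. Of 16 basement membrane partners, fibroblasts led for 5, and mural, endothelial and Schwann cells for 3 each; the laminin chain Lama2 was at 1678 CPM (1154 to 1927) in fibroblasts.

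Without a replicate block, no collagen chain gene passed the threshold between PHD1-/- and PHD1+/+, in all nuclei or in any class. With the replicate number as a block, Col6a3 in inhibitory neurons was called in edgeR (adjusted p = 0.0298) and no other member was. With edgeR's quasi-likelihood test and Benjamini-Hochberg adjustment over all genes tested (threshold 0.05), 0 of 19303 genes were called in all nuclei (0%), and 0 of the 42 members tested; 96 genes (0.497%) and 0 members had an unadjusted p under 0.05, and DESeq2 called 0 genes. The same edgeR test on the sums of 15 single classes and of all neurons together called 0% of the genes and 0 members in each. Over all 17 comparisons 2 of 273 member tests had an unadjusted p under 0.05 in edgeR, 0.733% beside 0.826% of the 142359 tests over all genes, and 0 did in DESeq2, beside 0.384% over all genes. With the replicate block in edgeR it was 16 of 273 member tests (5.86%), beside 6.96% over all genes. Within replicates 2 and 3 in edgeR it was 21 of 285 (7.37%), beside 4.8%. The unblocked shares lay well under these, so the lack of calls without the block does not show equal levels. DESeq2 called 0 members and 0% of the genes in each comparison except astrocytes (0.0146%). Within replicates 2 and 3, which share a barcode list, edgeR called 0 members in these comparisons; of all genes it called 0.0473% in fibroblasts, 0.069% in Schwann cells, 0.0118% in astrocytes, 0.022% in ependymal cells, 0.00561% in all neurons, 0.00621% in excitatory neurons, 0.0252% in cholinergic neurons and 0.0269% in unresolved neurons, and 0% in the other comparisons. Replicate 1 alone leaves a single library per group and no test. Values over all nuclei mix fewer cells of a type with less RNA per cell, which cannot be told apart, and without the fibroblast, Schwann, mural and endothelial nuclei edgeR again called 0 genes.

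The members lay on both sides of 0. In all nuclei 22 were above and 20 below 0 on the log2 scale (PHD1-/- over PHD1+/+), with a median of 0.01, beside -0.01 for all genes tested. In fibroblasts 23 of the 44 passed the filter on low counts, with 10 above and 13 below 0 and a median of -0.04 (-0.04 for all genes). In Schwann cells 18 passed, with 8 above and 10 below and a median of -0.05 (-0.05 for all genes). In neurons 41 passed, with 21 above and 20 below and a median of 0.01 (-0.01 for all genes). By kind of chain in all nuclei, 6 of 11 fibrillar, 4 of 6 type IV, 1 of 6 type VI and 5 of 9 fibril-associated chains had log2 changes above 0, and 0 of each kind was called.

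In edgeR without the replicate block, the most abundant chains of each class had log2 changes smaller than or close to their errors. In fibroblasts the log2 change was 0.12 (SE 0.30) for Col1a2, 0.33 (SE 0.27) for Col3a1, -0.10 (SE 0.24) for Col8a1 and -0.01 (SE 0.35) for Col4a5. In Schwann cells it was 0.30 (SE 0.37) for Col1a2, -0.33 (SE 0.31) for Col5a2 and 0.06 (SE 0.30) for Col23a1. In neurons, where counts are deepest, it was 0.01 (SE 0.17) for Col11a1, 0.05 (SE 0.19) for Col25a1 and 0.14 (SE 0.20) for Col19a1. Mural and endothelial cells allowed a test of 2 members each. In mural cells the log2 change was 0.68 (SE 0.54) for Col4a1 and 0.24 (SE 0.46) for Col8a1, and in endothelial cells -0.05 (SE 0.59) for Col4a1 and -0.16 (SE 0.58) for Col4a2, so for Col4a1 in endothelial cells a 2-fold change in either direction lies within 2 SE. In glia, Col16a1 had 0.19 (SE 0.26) in oligodendrocytes, Col9a3 0.02 (SE 0.34) in newly formed oligodendrocytes, Col27a1 0.37 (SE 0.35) in microglia, and Col23a1 -0.36 (SE 0.32) in astrocytes and 0.22 (SE 0.36) in ependymal cells. In cholinergic neurons Col4a2 had 0.43 (SE 0.32). The errors depended on the fit. With the replicate block in edgeR, the values over all neurons were 0.01 (SE 0.06) for Col11a1 and 0.05 (SE 0.07) for Col25a1. For Col19a1 the blocked value was 0.14 (SE 0.07), larger than its error, with an adjusted p of 0.551.

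The members nearest to the threshold are given next, and all had an adjusted p of 0.997 or more in edgeR. Col18a1 in Schwann cells had 40.7, 30.4 and 17.5 CPM in PHD1-/-, against 47.3, 67.7 and 117 CPM in PHD1+/+, so the groups did not overlap. Its log2 change was -1.31 (SE 0.51, unadjusted p = 0.0258), on 57 UMIs in all, and 1.37% of the genes tested in Schwann cells had an unadjusted p under 0.05 in edgeR. Col15a1 in excitatory neurons had 4.47, 4.54 and 6.37 CPM in PHD1-/-, against 12.3, 6.80 and 8.13 CPM in PHD1+/+, again without overlap, with a log2 change of -0.76 (SE 0.31, unadjusted p = 0.0434) in edgeR where 0.464% of the genes tested had an unadjusted p under 0.05. Within replicates 2 and 3 alone the log2 change was -1.94 for Col18a1 in Schwann cells and -0.44 for Col15a1 in excitatory neurons. Col15a1 and Col18a1 are the multiplexins, and neither had the same sign in every class; the difference between classes was not tested. In fibroblasts, which lead for both, the log2 change was -0.31 (SE 0.37) for Col15a1 and 0.37 (SE 0.54) for Col18a1. In Schwann cells it was 0.53 (SE 0.51) for Col15a1. In all nuclei it was -0.31 (SE 0.28) for Col15a1 and -0.23 (SE 0.27) for Col18a1, with overlapping libraries. Col18a1 had 0.09 (SE 0.41) in OPC, Col15a1 had 0.26 (SE 0.31) in microglia and 0.06 (SE 0.40) in unresolved neurons, and both were below 0 in excitatory and inhibitory neurons. Col9a1 in newly formed oligodendrocytes, given above by library, had a log2 change of 0.63 (SE 0.30, unadjusted p = 0.0634) in edgeR and its groups did not overlap; in all nuclei it was 0.25 (SE 0.20). Col11a2 in astrocytes had 49.9, 55.3 and 59.8 CPM in PHD1-/-, against 37.2, 36.9 and 36.1 CPM in PHD1+/+, without overlap, and a log2 change of 0.59 (SE 0.28, unadjusted p = 0.0659) in edgeR. Col8a2 in ependymal cells had a log2 change of 0.86 (SE 0.40, unadjusted p = 0.0574) in edgeR, with overlapping libraries.

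The remaining named comparisons were no nearer. In all nuclei Col6a5 had a log2 change of -0.52 (SE 0.65) and Col8a2 of 0.51 (SE 0.53). Col4a2 in fibroblasts had -0.40 (SE 0.38), Col16a1 in Schwann cells -0.55 (SE 0.48), Col7a1 in oligodendrocytes -0.93 (SE 0.74) and Col5a3 in oligodendrocytes -0.48 (SE 0.41). In newly formed oligodendrocytes Col20a1 had -0.22 (SE 0.30), in OPC Col4a2 had -0.38 (SE 0.59) and Col11a2 0.13 (SE 0.28), in microglia Col25a1 had -0.71 (SE 0.50), and in ependymal cells Col5a3 had -0.39 (SE 0.63). Among neurons, Col4a6 had -0.68 (SE 0.39) and Col15a1 -0.41 (SE 0.26) over all of them, Col28a1 0.72 (SE 0.50) in excitatory, Col16a1 -0.59 (SE 0.38) in inhibitory, and Col16a1 0.86 (SE 0.46) and Col5a3 0.96 (SE 0.58) in cholinergic neurons. The libraries did not overlap for Col4a6 in all neurons and Col16a1 in inhibitory neurons. Members described here and above as without overlap between genotypes were named for a small p. The share of all genes without such overlap was not computed. In neurons of unresolved type Col4a5 had 0.66 (SE 0.34) and Col6a1 -0.84 (SE 0.46). Border macrophages had 0 members past the filter on low counts, and lymphocytes were not tested because a library held fewer than 10 of them.

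Col6a3 was the member whose call depended on the fit. In inhibitory neurons it had 1.80, 5.66 and 1.94 CPM in PHD1-/-, against 2.04, 10.6 and 9.83 CPM in PHD1+/+; the groups overlapped through PHD1+/+ replicate 1, and the log2 change was -1.21 (SE 0.62, unadjusted p = 0.0905) in edgeR. With the replicate number as a block it was -1.36 (SE 0.28) with an adjusted p of 0.0298 in edgeR, the single member called under the block, the block fit calling 61 genes (0.396% of those tested). The block called 0 members elsewhere, with 0.0604% of genes called in Schwann cells, 0.0146% in astrocytes, 0.0131% in OPC, 0.0302% in ependymal cells, 0.169% in all neurons, 0.0377% in excitatory, 0.198% in cholinergic and 0.22% in unresolved neurons, and 0% in the other comparisons. In microglia Col6a3 had 0, 32.6 and 0 CPM in PHD1-/-, against 3.17, 61.5 and 35.4 CPM in PHD1+/+, and the log2 change was -1.30 (SE 0.98, unadjusted p = 0.215) in edgeR. In all nuclei it had 2.70, 5.81 and 2.66 CPM in PHD1-/-, against 1.64, 9.72 and 8.26 CPM in PHD1+/+, with -0.80 (SE 0.66, unadjusted p = 0.266). With the block in edgeR the log2 change was -1.52 (SE 0.45, adjusted p = 0.993) in microglia. It was -0.70 (SE 0.38, adjusted p = 0.819) in all nuclei with the block in edgeR. In inhibitory neurons, microglia and all nuclei the same 3 libraries, PHD1-/- replicate 2 and PHD1+/+ replicates 2 and 3, held the highest values. In fibroblasts, where its mean was highest, Col6a3 had 42.2, 71.8 and 48.7 CPM in the PHD1-/- libraries (replicates 1 to 3), against 30.98, 46.7 and 72.97 CPM in the PHD1+/+ libraries, and there the libraries overlapped throughout.

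**Figure D5:**
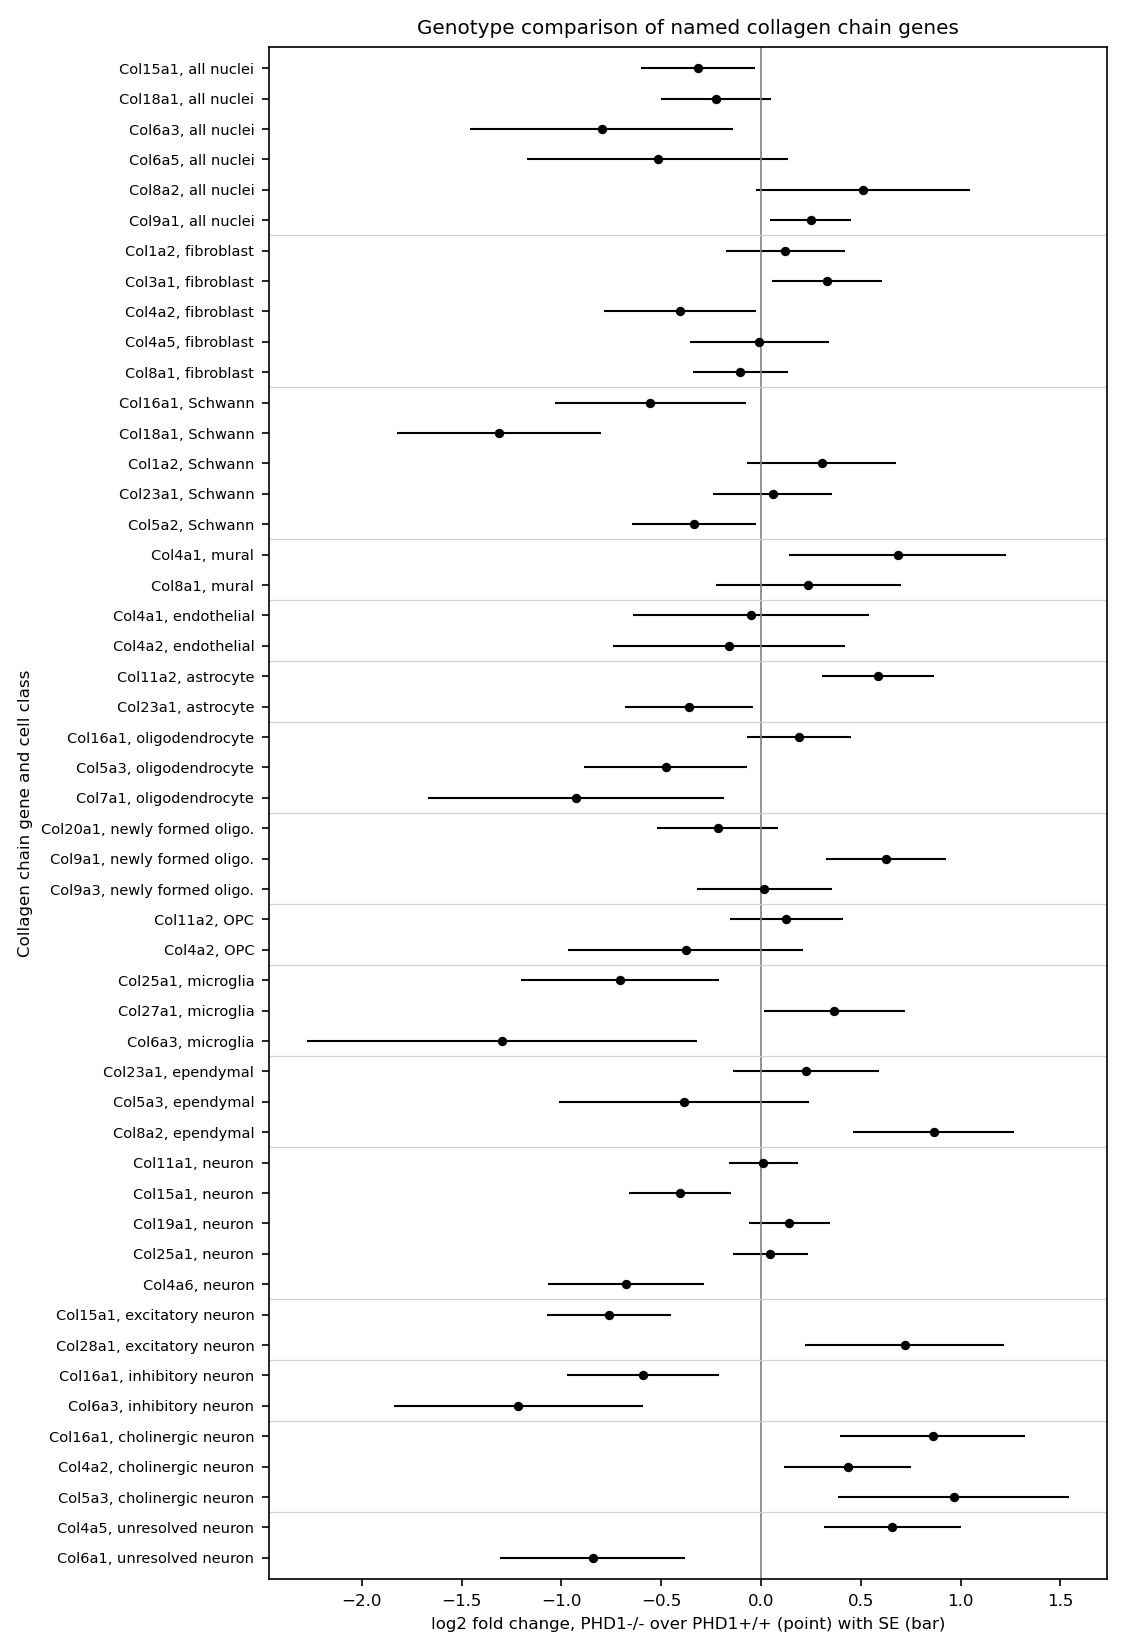
log2 fold change, PHD1-/- over PHD1+/+, with its standard error (horizontal bar), of the 50 named pairs of collagen chain gene and cell class (rows), from edgeR fits on 3 libraries against 3. Points fall on either side of 0, none passed the threshold in these fits, which hold no replicate block, and Col18a1 in Schwann cells (-1.31), Col6a3 in microglia (-1.30) and Col6a3 in inhibitory neurons (-1.21) lie farthest from 0.

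The 5 lists of genes that act on or with collagen also held no call: 0 of 68 tested members in all nuclei passed the threshold in either direction in edgeR, and 0 in each class. In all nuclei 5 of the 19 modifying and folding genes had log2 changes above 0 (median -0.04). The count was 6 of 12 processing and cross-linking genes (median -0.02), 4 of 11 receptors (median -0.04), 2 of 10 breakdown genes (median -0.20) and 7 of 16 basement membrane partners (median -0.08), beside a median of -0.01 for all genes tested. Reads of genes that overlap cannot be told apart where strand was not used in counting, and 15 of the 44 collagen genes overlap another annotated gene, 3 of them on the same strand (Col20a1, Col24a1 and Col26a1).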

How the data were processed

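Frozen lumbar spinal cord nuclei were profiled with a 10x 3' kit. The deposited values are UMI counts per gene and nucleus, not normalized, and per the file headers they come from version 5.0.1 of Cell Ranger; version 5.0.2, Scanpy 1.8.1 and mm10 stand in the submitters' processing notes. The sources used here do not state the handling of introns and strand. The 4 antibody tag features held 0 UMIs and were left out.

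Nuclei with at least 500 UMIs, 300 genes and at most 5% mitochondrial UMIs were kept (14074710 to 32508245 UMIs per library). Scrublet marked 0 to 259 doublets per library, which were dropped; in replicate 1 of both groups it marked under 0.5% and had not worked. Nuclei were clustered with Scanpy 1.11.5 (2000 variable genes without collagen genes, 1500 within neurons and small classes; 30 components, 15 neighbours, Leiden resolution 1.0). Clusters were named from marker lists with thresholds set after the clusters were seen (score 0.6, rival 0.4, at least 3 markers at 2-fold).

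UMIs summed per library and class were tested with edgeR 4.0.16 (TMM, filterByExpr, quasi-likelihood, two-sided) where every library had at least 10 nuclei, with DESeq2 1.42.0 as an alternative; the script was tested on simulated data. The labels do not say whether libraries are single mice, so p-values measure the spread between libraries. Deviations from the group means correlated at 0.82, 0.63 and 0.51 for same-numbered libraries. PHD1-/- replicate 2 with PHD1+/+ replicate 3 gave 0.47 and PHD1-/- replicate 3 with PHD1+/+ replicate 2 0.38, and pairs of replicate 1 with another number -0.71 to -0.53, so the values mostly set replicate 1 apart. Every same-numbered value was over 0.1, but so were the unlike-numbered values among replicates 2 and 3, so they do not show pairing. The labels speak of littermate pairs without saying that the number marks the pair. The numbers were taken as pairs in the blocked alternative only. The members, lists and tests were chosen with earlier results of these data known. By genotype, members were named by the smallest p (6 in all nuclei, 2 per class) and by abundance. Gene spans are from GENCODE M21.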

Additional observations from a re-analysis of the deposited data

How the results depend on the processing

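Leaving out any library kept the leading class of 41 to 43 of the 44 members. Collagen genes in the clustering, kept doublets or a Leiden resolution of 1.5 kept 43 each, and a minimum of 1000 UMIs or a mean over nuclei 39 each. With mean over nuclei, 5 members were highest in newly formed oligodendrocyte nuclei. The number highest in endothelial nuclei was 0 to 2 with a library left out. No member was called under any alternative except Col6a3 in inhibitory neurons under the replicate block (-1.36); the block changed no other member call. The replicate block called 3 in Schwann, 1 in astrocyte, 1 in OPC, 1 in ependymal, 30 in neuron, 6 in excitatory neuron, 61 in inhibitory neuron, 14 in cholinergic neuron and 25 in unresolved neuron (genes, against 0; the cause was not tested). Replicates 2 and 3 only called 3 in fibroblast, 3 in Schwann, 1 in astrocyte, 1 in ependymal, 1 in neuron, 1 in excitatory neuron, 2 in cholinergic neuron and 3 in unresolved neuron. No filter on low counts called 4 in Schwann, 3 in astrocyte, 1 in newly formed oligodendrocyte, 3 in OPC, 5 in border macrophage and 38 in cholinergic neuron. At least 1000 UMIs per nucleus called 1 in Schwann. DESeq2 called 1 in astrocyte. With a library left out, 0 to 1 genes were called in border macrophage and 0 to 1 genes were called in fibroblast. Of 590 alternative values of 50 named log2 changes, 557 kept their sign and side of the threshold and 32 changed sign, all of uncalled values. With a library left out the log2 change ran from -0.12 to 0.13 (Col11a1, neuron), -0.0118 to 0.29 (Col11a2, OPC), -0.37 to 0.10 (Col18a1, all nuclei), -0.0145 to 0.26 (Col19a1, neuron), -0.0401 to 0.58 (Col1a2, Schwann), -0.0806 to 0.32 (Col1a2, fibroblast), -0.12 to 0.27 (Col23a1, Schwann), -0.0249 to 0.47 (Col23a1, ependymal), -0.0657 to 0.17 (Col25a1, neuron), -0.39 to 0.82 (Col4a1, endothelial), -0.82 to 0.0633 (Col4a2, OPC), -1.16 to 0.16 (Col4a2, endothelial), -0.36 to 0.37 (Col4a5, fibroblast), -0.84 to 0.31 (Col6a5, all nuclei), -0.18 to 0.0132 (Col8a1, fibroblast), -0.10 to 0.57 (Col8a1, mural) and -0.25 to 0.38 (Col9a3, newly formed oligodendrocyte). With at least 1000 UMIs per nucleus, it was -0.00212 (Col11a2, OPC). With replicates 2 and 3 only, it was 0.0744 (Col18a1, all nuclei), -0.25 (Col8a1, mural) and -0.14 (Col23a1, Schwann). With at least 1000 UMIs per nucleus, mural, endothelial and border macrophage nuclei were too few in a library to test, and a few members failed the filter on low counts with libraries left out; these have no value. Depth limits the classes with few UMIs: mural and endothelial cells allowed a test of 2 members each.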

Other observations

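Oligodendrocytes, which as a class differed little from their precursors in Col16a1, held clusters that differed in it. Pooled over libraries, with 95% Poisson intervals, cluster a2 (3235 nuclei) had 127 CPM (119 to 134) and cluster a8 (1567 nuclei) 84.04 CPM (71.7 to 97.8), against 25.2 CPM (22.1 to 28.6) in a0 (5724 nuclei) and 23.5 CPM (17.9 to 30.3) in a3 (2895 nuclei). Clusters a0 and a2 came mostly from replicates 2 and 3 of both groups, and a3 and a8 from replicate 1, so a Col16a1-high and a Col16a1-low cluster stood beside each other in both sets of libraries. In each set the Col16a1-high cluster also held more UMIs per nucleus. The medians were 2318 in a2 against 1535.5 in a0, and 1174 in a8 against 805 in a3. A role of depth was not tested. Col11a2, which encodes a chain of another collagen, was also at 34.6 CPM (30.7 to 38.8) in a2 and 44.5 CPM (35.7 to 54.9) in a8, against 12.8 CPM (10.6 to 15.3) in a0 and 13.2 CPM (9.06 to 18.5) in a3. Col9a1 was at 23.4 CPM (20.2 to 26.9) in a2 and 18.7 CPM (13.2 to 25.8) in a8, against 7.16 CPM (5.55 to 9.09) in a0 and 9.17 CPM (5.81 to 13.8) in a3, but as a mean over libraries at 18.5 and 29.7 CPM, against 15.5 and 7.46 CPM. Its partner Col9a3 showed no such split, at 31.6 and 25.3 CPM in a2 and a8, against 29.7 and 28.7 CPM in a0 and a3. The clusters were drawn from the same nuclei, so these values carry no test.

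Among microglia, Col27a1 was at 203 CPM (182 to 226) in cluster b0, 118 CPM (93.4 to 147) in b1 and 104 CPM (83.7 to 127) in b2, pooled over libraries. As a mean over libraries it was 174 CPM (range 43.9 to 278), 137 CPM (78.4 to 203) and 73.6 CPM (0 to 124), so the libraries overlapped. Cluster b1 came mostly from replicate 1 and b0 and b2 from replicates 2 and 3, and over all microglia Col27a1 was at 101 and 76.1 CPM in PHD1-/- and PHD1+/+ replicate 1, lower than in the other libraries of each group. Ependymal cluster b19 (74 nuclei) had Col23a1 at 342 CPM (239 to 473), against 106 CPM (71.3 to 153) in b8 and 150.1 CPM (121 to 184) in b9. Col6a5, close to absent elsewhere, was at 40.03 CPM (25.6 to 59.6) in ependymal b9, against 7.34 CPM (0.889 to 26.5) in b8; b9 came mostly from replicates 2 and 3 and b8 mostly from replicate 1.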
